A study of Mus musculus with 2 samples.

Results

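Natural killer (NK) cells were followed in 2 droplet single-cell libraries from mouse femora. The cells were selected barcode by barcode on their own RNA. A barcode was kept when it held at least 200 detected genes and at most 15% of its unique molecular identifiers (UMIs, the tags that count single RNA molecules) came from mitochondrial genes. Among kept barcodes, an NK cell was one with at least 2 UMIs of Ncr1, Klrb1c and Klre1 together, at most 1 UMI of Cd3d, Cd3e and Cd3g together, at most 3 UMIs of Cd79a and Cd79b together, no UMI of Siglech, and under 4% of its UMIs from S100a8 and S100a9. This selection gave 119 NK cells of 15842 kept barcodes and of 17057 barcodes in all.

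Both libraries came from mice with an osteoporotic fracture that carried an intramedullary nail, a rod fixed inside the marrow cavity. One library, called Mg here, is from animals with a magnesium nail, and the other, Mg-TAGelMA, is from animals with an Mg-TAGelMA nail. Each combined marrow of the femur with cells adhering to the implant, so the cells of these sources cannot be told apart, and strain, sex, age, time after surgery and the number of animals are not given in the sources used here. RNA was captured from its 3′ end with 10x Chromium v3 chemistry. With 1 library per nail there is no replicate: every interval below covers counting error only, no p-value is given, and a difference between the libraries cannot be told apart from a difference between the animals or between the runs.

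NK cells are innate lymphocytes that kill infected, stressed or transformed cells without a rearranged antigen receptor. They weigh signals from activating receptors, such as NKG2D and NKp46, against inhibitory receptors that read MHC class I on the target. In mice most of these receptors belong to the C-type lectin-like Klr families. Killing is carried out by perforin and granzymes released from cytotoxic granules, and activated NK cells also secrete interferon gamma and the chemokines Ccl3, Ccl4, Ccl5 and Xcl1. They are formed in bone marrow, where they need interleukin 15 and the transcription factors Eomes, T-bet and Id2, and pass from a CD27 stage to a CD11b stage before leaving for blood and tissue.

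The Mg library held 80 NK cells and the Mg-TAGelMA library 39. Their depth differed: the lowest, median and highest NK barcode held 531, 4848.5 and 25637 UMIs under the Mg nail, and 3810, 7217 and 37472 under the Mg-TAGelMA nail. Detected genes per NK cell had medians of 2024.5 and 2739. Before the steps against other cells, 171 Mg and 123 Mg-TAGelMA barcodes had 2 or more UMIs of the 3 NK genes; the Cd3 limit left 92 and 53, the Cd79 limit 83 and 47, Siglech 81 and 46, and the S100a8 and S100a9 limit 80 and 39. The NK-gene threshold lay in a thin zone on its inner side: 5 Mg and 2 Mg-TAGelMA members held exactly 2 of these UMIs, the median member held 12 and 10, and 55 and 30 further barcodes held exactly 1. Of barcodes that met every other limit, 9 and 2 were kept with 1 Cd3 UMI, and 2 and 1 were left out with 2. The libraries shared 21 barcode sequences, 0 of them among NK cells.

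The label NK was checked on further genes of this cell type. Nkg7, a cytotoxic granule membrane protein, reached 1804 UMIs per 1000000 of the group (CPM) in Mg NK cells and 1204 in Mg-TAGelMA NK cells; Ccl5, a chemokine, reached 7503 and 5387; and Gzma, granzyme A, reached 3981 and 2878. At least 1 UMI of each of these 3 was present in 66 of 80 and 33 of 39 cells. The ranking of genes by their level in NK cells over all other kept barcodes, taking the smaller value of the 2 libraries, was led by Klra4, Gzma, Ncr1, Klra8, Klrb1a, Klrb1b, Klrb1c, Klri2, Prf1, Klre1, Eomes, Klrc2, Itga2, Samd3 and Klra7, whose ratios ran from 68.2 to 706. Ncr1, Klrb1c and Klre1 stand in this ranking because they chose the cells, and the ranking describes the cells and is no test. Of these 15 genes, 9 (Klrb1c and Klre1 among them) lie in a cluster of 21 measured Klr genes on chromosome 6 (mm10, between 128609227 and 130386874), the NK gene complex, which codes for the lectin-like receptors. Genes of this complex are close copies of each other, Klra and Klrc genes above all, and how reads were divided among copies is not given in the sources used here, so single Klra and Klrc values are uncertain. Markers of other innate lymphoid cells were low beside 15 NK-defining genes, which summed to 23145 and 15968 CPM. The sum of 10 group 1 markers was 91.6 and 153 CPM, against 276 and 335 in other barcodes. That of 10 group 2 markers was 75.9 and 95.6, above the 22.1 and 32.2 of other barcodes. For 8 group 3 markers it was 24.6 and 32.8, against 24.8 and 73.2. In either library 5, 4 and 1 markers of these groups reached 10 CPM. Il23r, Il22, Il17a, Cxcr6 and Zfp683 had 0 UMIs in the NK cells of both libraries. A sum of 15 T cell markers, the gated Cd3 genes among them, was 782 and 1087 CPM, against 5811 and 4277 in T cells.

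**Figure D1:**
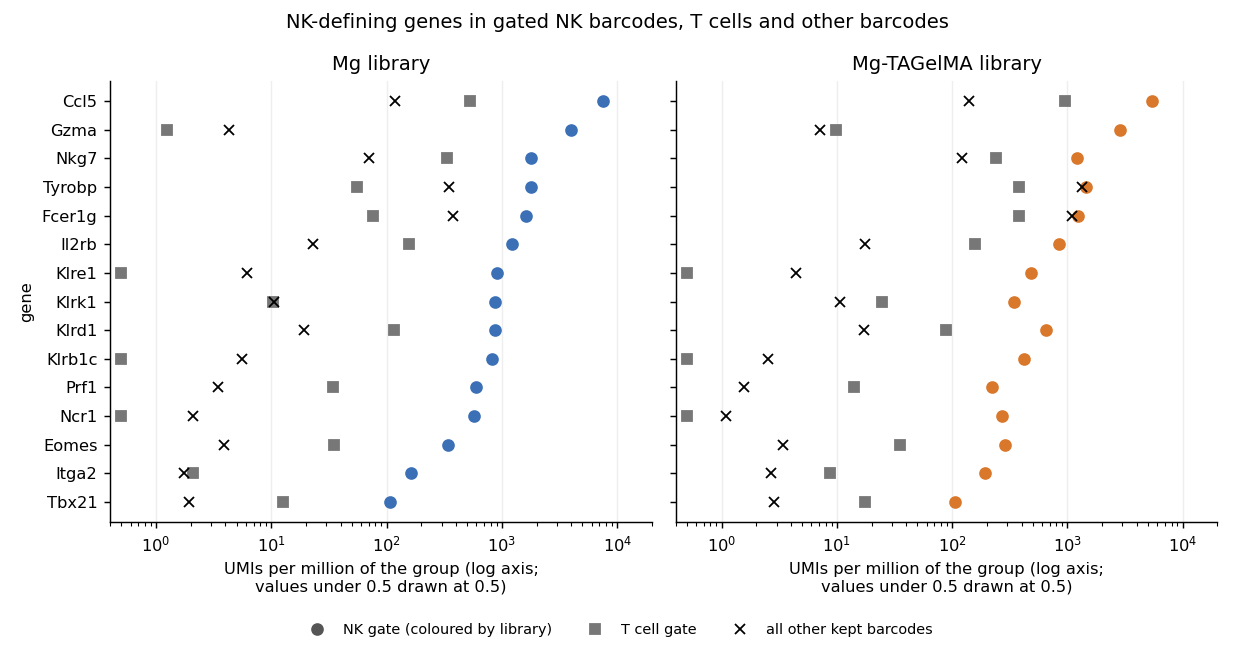
Level of 15 NK-defining genes, in CPM on a log axis, in the Mg library (left) and the Mg-TAGelMA library (right), for NK cells (circles), T cells (squares) and all other kept barcodes (crosses). Ccl5 and Gzma are higher in NK cells than in T cells and in other barcodes of both libraries; Ncr1, Klrb1c and Klre1 chose the cells, while Tyrobp and Fcer1g in the Mg-TAGelMA library are nearly as high in the other barcodes.

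Promoter sequence was read for 4 genes that define these cells because RUNX factors, whose shared core motif is TGTGGT, or its reverse complement ACCACA, are known regulators of NK genes. Each line gives the 250 bases before the RefSeq start of the gene (GRCm38.p6, the assembly of mm10), 5′ to 3′ on the strand of the gene. Capitals mark the RUNX core and, in Nkg7 alone, the T-box motif AGGTGTGA.
Ncr1 (chr7:4337465-4337714, plus strand): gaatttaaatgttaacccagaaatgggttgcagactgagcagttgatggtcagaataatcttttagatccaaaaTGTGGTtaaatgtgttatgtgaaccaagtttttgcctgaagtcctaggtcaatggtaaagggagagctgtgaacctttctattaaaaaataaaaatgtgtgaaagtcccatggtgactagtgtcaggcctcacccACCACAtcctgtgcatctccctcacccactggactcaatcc
Klrb1c (chr6:128788642-128788891, minus strand): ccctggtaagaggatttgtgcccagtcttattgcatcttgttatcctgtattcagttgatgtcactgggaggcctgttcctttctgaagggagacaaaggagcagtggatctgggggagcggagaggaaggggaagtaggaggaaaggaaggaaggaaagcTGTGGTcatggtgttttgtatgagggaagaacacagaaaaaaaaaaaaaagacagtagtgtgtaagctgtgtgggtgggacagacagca
Gzma (chr13:113100982-113101231, minus strand): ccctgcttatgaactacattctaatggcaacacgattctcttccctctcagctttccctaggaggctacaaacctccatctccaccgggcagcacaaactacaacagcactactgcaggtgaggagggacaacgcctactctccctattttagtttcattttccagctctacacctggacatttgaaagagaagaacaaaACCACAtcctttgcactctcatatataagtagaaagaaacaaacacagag
Nkg7 (chr7:43436888-43437137, plus strand): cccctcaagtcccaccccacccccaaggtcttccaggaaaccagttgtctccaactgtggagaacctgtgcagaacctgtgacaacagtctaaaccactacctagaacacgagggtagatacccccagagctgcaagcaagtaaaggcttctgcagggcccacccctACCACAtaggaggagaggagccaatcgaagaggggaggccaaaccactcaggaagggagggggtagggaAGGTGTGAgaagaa
In Ncr1 the core starts 176 and 41 bases before the gene's start, in Klrb1c 89, in Gzma 50 and in Nkg7 83. Of 15 NK-defining genes, 11 had a window, and the RUNX core was in 7 of them (Ncr1, Klrb1c, Klre1, Nkg7, Klrk1, Gzma and Prf1), searched on both strands; the same letters were in 15.9% of the windows of 27025 genes. The T-box letters (TCACACCT on the other strand) were in the window of Nkg7 and in 1.30% of all genes. These are matches of letters, and binding was not measured.

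Several features set the libraries apart and touch the values below. First, a few NK barcodes carried another cell type's RNA. In the Mg library 1 member had 43.8% of its UMIs in haemoglobin genes and 2 members held 144 and 318 UMIs of Lyz2, a myeloid gene; 1 Mg and 3 Mg-TAGelMA members exceeded 20000 UMIs, and 1 in each library had no UMI of Nkg7 or Ccl5. Together these were 5 of 80 and 4 of 39 cells, and for the members of gene lists described below whose call was lost without these 9 cells, the value without them is given. Second, free RNA of abundant marrow cells was present in NK cells. The summed level of 12 neutrophil markers was 3178 CPM in Mg and 12091 CPM in Mg-TAGelMA NK cells, against 54494 and 144264 in other barcodes. Their lowest share in a cell was 0.0975% and 0.942%. The summed level of 8 erythroid markers was 6317 and 522 CPM, against 38675 and 3486. The haemoglobin-rich Mg member alone held 76.6% of the haemoglobin UMIs of Mg NK cells. The median share of erythroid markers in a cell was 0.129% and 0.0417%. S100a8 and S100a9 took a median of 0.185% of the UMIs of an Mg NK cell and 0.816% of an Mg-TAGelMA NK cell. Their part in the results was not tested.

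In addition, the libraries were processed with different versions of the counting software, 5.0.0 for Mg and 7.0.1 for Mg-TAGelMA per the file headers, and the ratio between libraries moved with gene structure. The median log2 ratio (Mg-TAGelMA over Mg) in NK cells was -0.29 for 994 measured genes with under 2 kb of annotated intron and 1.10 for 1805 genes with over 64 kb. Gm42418, a model that lies over a ribosomal RNA repeat, made up 7.24% of Mg NK UMIs and 0.148% of Mg-TAGelMA NK UMIs. For genes with at most 8 kb of intron, ratios are therefore also given on the summed UMIs of those genes alone, called the short-intron scale, and T cells of the same libraries (410 Mg and 216 Mg-TAGelMA barcodes) are set beside NK cells, since they passed through the same counting. The short-intron total still holds Gm42418, so that scale does not take out the difference in this model. The software version and the nail cannot be told apart.

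NK cells were a smaller share of kept barcodes in the Mg-TAGelMA library, with an interval clear of 1 for 1 of the 3 denominators used. They were 0.962% of 8319 kept Mg barcodes (exact Clopper-Pearson 95% interval 0.763 to 1.20) and 0.518% of 7523 kept Mg-TAGelMA barcodes (0.369 to 0.708), a share 1.86-fold lower (1.25 to 2.79). Over the same denominator T cells were lower by a ratio of 0.583 (0.492 to 0.689). Among NK and T cells together, NK cells were 16.3% (13.2 to 19.9) and 15.3% (11.1 to 20.3), a ratio of 0.937 with an interval of 0.622 to 1.39. Outside the neutrophil and erythroid gates they were 1.36% of 5892 and 1.05% of 3713 barcodes, a ratio of 0.774 (0.514 to 1.15). The neutrophil gate held 1453 Mg and 3723 Mg-TAGelMA barcodes, and the erythroid gate 984 and 93. The share also depends on the level of the gate genes Ncr1, Klrb1c and Klre1, which was lower in Mg-TAGelMA NK cells. A share of barcodes in a suspension is not a number of cells in the femur.

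Across all genes, a difference was called large when the 95% interval of the ratio lay wholly beyond 2-fold and the gene reached 50 CPM in the library where it was higher. Of 9294 genes measured in NK cells (10 CPM or more in either library), 545 were higher in Mg-TAGelMA by this rule, 5.86%, and 57 were lower, 0.613%. The median log2 ratio of all measured genes was 0.08. On the short-intron scale, 52 of 2587 genes were higher, 2.01%, and 18 were lower, 0.696%, around a median of 0.10. The 10 genes with the highest ratios (Abcb1b, Lrmda, Immp2l, Simc1, Dock4, Fhit, Gcnt2, Kcnq5, Gramd3 and Pak1) all have at least 41.8 kb of intron. On the short-intron scale the highest were Mt1, a metal-binding metallothionein, then Ifitm1, Ccl3, Tgif1, Trp53inp2, Tnfaip3, Arrdc3, Cdkn1a, Klf4 and Dgat1. Mt1 rested on 2 and 22 UMIs, and its call was lost at a minimum of 100 CPM. Its T cell ratio was 6.15, and its level in NK cells was 0.0585 and 0.276 of that in other barcodes. The 18 lower genes included histone genes, Ccr2, Id2 and haemoglobin genes. For haemoglobin genes, 1 Mg barcode held 76.6% of the UMIs of Mg NK cells. The histone values moved with a few barcodes that held cycling genes: without them Hist1h2ae went from 0.0644 to 0.460 and Hist1h1b from 0.0371 to 0.219. Of the named histone genes, only Hist1h2ap stayed past the rule.

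**Figure D2:**
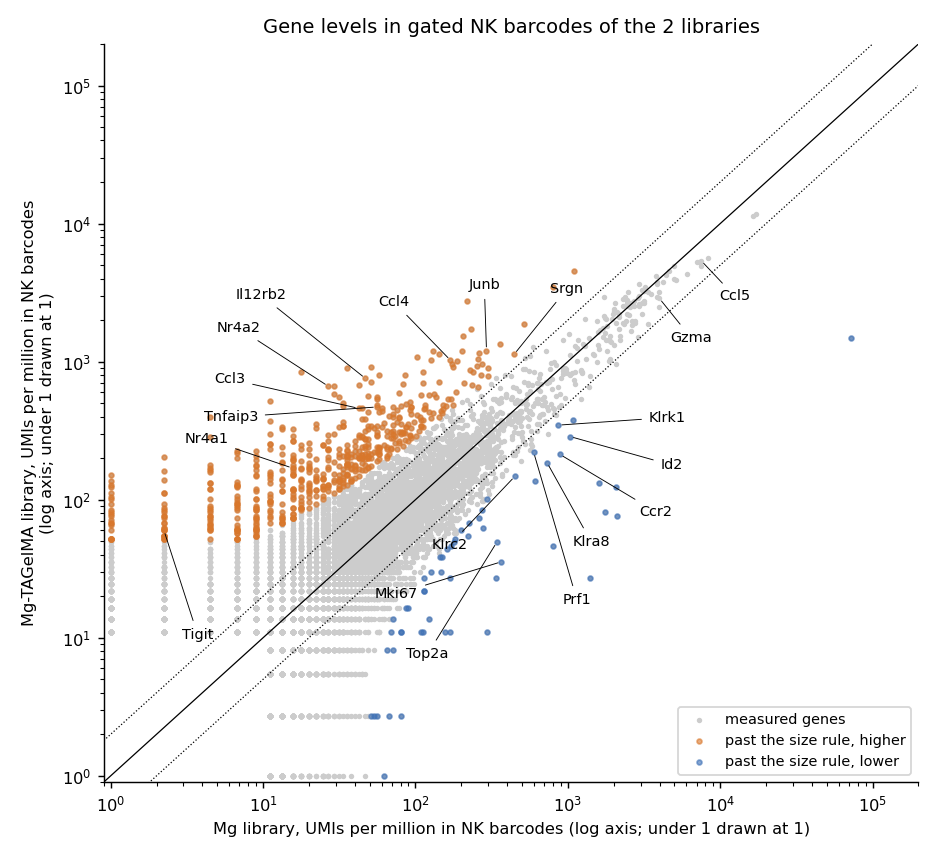
Level of each measured gene in NK cells of the Mg library (horizontal) and the Mg-TAGelMA library (vertical), in CPM on log axes; the solid line marks equal levels and the dotted lines 2-fold. Orange points are the 545 genes past the size rule in the higher direction and blue points the 57 in the lower direction; Klra8, Klrk1, Prf1, Id2 and Ccr2 lie among the latter.

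Among activating receptors the members past the size rule were all lower in Mg-TAGelMA NK cells. These were 3 of 16 measured receptors (Klra8, Klrc2 and Klrk1), beside 0.613% lower among all genes. The median log2 ratio was -0.88 against 0.08 for all genes, or -0.72 against 0.10 on the short-intron scale over 5 members. The list holds Ncr1 and Klrb1c, which chose the cells, so its median is a description.

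Klra8, the activating receptor Ly49H, had 327 UMIs in 49 of 80 Mg NK cells and 68 UMIs in 11 of 39 Mg-TAGelMA NK cells. In UMIs per 10000 of the barcode its lowest, median and highest values were 0, 4.73 and 34.5 in Mg cells and 0, 0 and 16.4 in Mg-TAGelMA cells. Most cells of the second library thus had none, and those that had it reached into the upper part of the Mg range. Its level was 730 and 186 CPM, a ratio of 0.254 (0.193 to 0.331). Klra4, the activating receptor Ly49D encoded beside it, did not share this difference: it had 297 UMIs in 37 cells and 254 in 19 cells, 663 and 694 CPM, a ratio of 1.05 (0.881 to 1.24). Ly49 receptors are switched on cell by cell, and the combinations differed: 30 of 80 Mg cells held both Klra4 and Klra8, 19 Klra8 alone and 7 Klra4 alone, whereas of 39 Mg-TAGelMA cells 8 held both, 3 Klra8 alone and 11 Klra4 alone. With each barcode thinned to 1000 UMIs, Klra8 was detected in 31 of 77 and 5 of 39 cells and Klra4 in 27 and 15. B cells of the same libraries, a type that should lack both genes, showed Klra8 in 1 of 3618 and 0 of 2046 thinned barcodes, which allows at most 0.180% in the latter by the exact interval.

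Klrk1 encodes NKG2D, which recognises stress ligands on other cells. It was detected in 77 of 80 Mg and 36 of 39 Mg-TAGelMA NK cells, so it was not lost from the cells but lower within them: the values per 10000 UMIs were 0, 8.58 and 33.6 (lowest, median, highest) against 0, 3.81 and 11.7. Its level was 866 and 347 CPM, a ratio of 0.40 (0.325 to 0.490), or 0.511 on the short-intron scale. Klrc2, encoding the activating receptor NKG2C, had per-cell medians of 3.99 and 0.893, with highest values of 25.3 and 7.56. The ratio of its levels, 449 and 147 CPM, was 0.329 (0.239 to 0.446), or 0.420 on the short-intron scale. Neither gene was past the size rule on the short-intron scale or without the 9 cells named above, where Klrk1 was at 0.462 and Klrc2 at 0.411. At 1000 UMIs per barcode, Klrk1 was found in 49 of 77 and 12 of 39 cells and Klrc2 in 35 and 2.

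Ncr1 (NKp46) and Klrb1c (NK1.1), on which the cells were chosen, were at 574 and 273 CPM and at 817 and 421 CPM. Their ratios of 0.476 (0.374 to 0.602) and 0.515 (0.423 to 0.623) were not past the rule, nor was Klri2 at 1.06 (0.809 to 1.39).

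Among 14 measured inhibitory receptors, 1 was past the rule in each direction, beside 5.86% higher and 0.613% lower among all genes. The median log2 ratio was -0.68. Klra9, the receptor Ly49I, had 117 UMIs in 36 Mg cells and 27 in 11 Mg-TAGelMA cells, a ratio of 0.282 (0.178 to 0.432); without the 9 cells named above it was 0.357 (0.225 to 0.549) and not past the rule. Klra7, which encodes Ly49G, differed little between libraries, at 308 and 273 CPM (ratio 0.886, 0.678 to 1.15). Klrc1, which encodes NKG2A, the partner of CD94, had 125 and 36 UMIs, a ratio of 0.352 (0.236 to 0.514) that reached back across 2-fold. Klrd1 itself, which encodes CD94, was at 864 and 650 CPM in 74 and 37 cells, a ratio of 0.752 (0.637 to 0.886). Klrb1b, an inhibitory NKR-P1 receptor, was at 125 and 216 CPM (1.73, 1.21 to 2.47), without passing the rule. Tigit, a checkpoint receptor that binds nectin-like ligands, passed it: 1 UMI in 1 Mg cell and 22 UMIs in 12 Mg-TAGelMA cells, a ratio of 26.9 with a counting interval from 4.35 to 1110. At 1000 UMIs per barcode Tigit was down to 0 of 77 and 2 of 39 cells, near the level of 1 UMI, and no change is read from that. Pdcd1, Lag3, Havcr2 and Pilra had at most 2 UMIs in the NK cells of either library.

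Adaptors couple these receptors to kinases. Tyrobp (DAP12) was at 1777 and 1439 CPM, Fcer1g at 1612 and 1231 CPM and Hcst (DAP10) at 337 and 287 CPM, with ratios of 0.810, 0.764 and 0.850. Tyrobp and Fcer1g are also myeloid genes, and other Mg-TAGelMA barcodes held them at nearly the NK level. Of 18 measured adaptors and signalling genes, 2 were past the rule, both higher, beside 5.86% of all genes. Among them was the phosphatase Inpp5d at 132 and 584 CPM (4.44, 3.31 to 6.02). It has long introns, and its T cell ratio was 4.6.

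The killing machinery was present in both libraries, with perforin lower in Mg-TAGelMA. Prf1, which encodes the pore-forming perforin, had 267 UMIs in 72 of 80 Mg cells and 81 UMIs in 24 of 39 Mg-TAGelMA cells. Per 10000 UMIs its lowest, median and highest values were 0, 4.98 and 36.1 against 0, 1.36 and 23.4, so that the groups overlapped over most of their range. Its level was 596 and 221 CPM, a ratio of 0.371 (0.286 to 0.477); on the short-intron scale it was 0.474 (0.365 to 0.610) and no longer past the rule, and in T cells 0.414. Without the 9 cells named above it was 0.436 (0.336 to 0.562), also not past the rule. At 1000 UMIs Prf1 was found in 35 of 77 and 7 of 39 cells, with B cells at 0.0553% and 0%. Granzyme A differed less: Gzma had per-cell medians of 24.2 and 23.7 and highest values of 173 and 185, at 3981 and 2878 CPM (0.723, 0.669 to 0.781; 0.923 on the short-intron scale). Gzmb, granzyme B, had 91 UMIs in 28 cells and 98 UMIs in 23 cells, a ratio of 1.32. Both Gzma and Prf1 were detected in 66 of 80 Mg cells and 23 of 39 Mg-TAGelMA cells.

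Srgn, the proteoglycan core on which granule proteins are packed, was the member of the cytotoxic list past the rule in the higher direction. It was at 444 and 1130 CPM, a ratio of 2.54 (2.14 to 3.03). T cells had a ratio of 2.54 as well. Without the 9 cells named above the NK ratio was 2.29 (1.89 to 2.76) and not past the rule. At 1000 UMIs per barcode NK cells showed Srgn in 31.2% and 71.8% and B cells in 38.9% and 66.4%, so its detection in NK cells was not set apart from that in B cells. Over the 20 measured members of the list, 1 was higher and 1 lower, beside 5.86% and 0.613% of all genes. The median log2 ratio of the list was -0.54, or -0.19 for short-intron members on their scale. The late CD11b-stage list, which shares Gzma, Gzmb and Prf1 with it, had 0 of 15 higher and 1 lower.

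Chemokines of the Ccl3 family were the secreted products with the largest difference. Ccl3, a short-intron gene for the chemokine MIP-1 alpha, had 19 UMIs in 11 of 80 Mg cells and 168 UMIs in 33 of 39 Mg-TAGelMA cells. Per 10000 UMIs it was at 0, 0 and 12.2 (lowest, median, highest) in Mg cells and at 0, 2.09 and 37.5 in Mg-TAGelMA cells. The level was 42.4 and 459 CPM, a ratio of 10.8 (6.71 to 18.4), or 13.8 on the short-intron scale. Ccl4, which encodes MIP-1 beta, followed it: 76 UMIs in 24 cells against 375 in 32 cells, per-cell medians of 0 and 4.76, highest values of 52.9 and 71.5, and 170 and 1024 CPM (6.03, 4.70 to 7.83). Both chemokines were detected together in 6 of 80 Mg cells and 29 of 39 Mg-TAGelMA cells, and 1 Mg cell held 34.2% of the Ccl4 UMIs of its library. Neutrophils and macrophages also make these chemokines. At 1000 UMIs, B cells, with unthinned median depths of 3689 and 5642 UMIs, showed Ccl3 in 0.663% and 5.08% of barcodes and Ccl4 in 1.58% and 7.14%; NK cells showed Ccl3 in 7 of 77 and 13 of 39 and Ccl4 in 7 and 17, above that background in both libraries. In T cells the ratios were 2.14 and 1.68, and the NK ratio exceeded the T cell ratio by 5.05-fold for Ccl3 (2.91 to 8.75) and by 3.59-fold for Ccl4.

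Other secreted products differed less or in another way. Ifng, interferon gamma, had 28 UMIs in 18 cells and 68 UMIs in 17 cells, a ratio of 2.97 (1.89 to 4.79) just short of the rule. Without the 9 cells named above it was 3.40 (2.16 to 5.49) and past it. Of the 68 UMIs, 1 cell held 24, 35.3%, and with each cell weighted equally the ratio was 2.31. In T cells the ratio of Ifng was 3.74. Ccl5, which resting NK cells already express, was at a ratio of 0.718 (0.679 to 0.759) and Xcl1, which attracts cross-presenting dendritic cells, at 1.20 (0.941 to 1.52). Tgfb1, a suppressive cytokine, was past the rule at 71.5 and 317 CPM (4.43, 2.98 to 6.78), with a T cell ratio of 1.65. Of 10 measured cytokine and chemokine genes, 3 were higher (Ccl3, Ccl4 and Tgfb1) and 0 lower, beside 5.86% and 0.613% of all genes. Tnf, Csf2, Lta and Il10 had at most 2 UMIs in NK cells of either library.

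Genes of the immediate early response had the median ratio farthest from 1 of the 18 lists. These genes, among them the Fos, Jun and Nr4a transcription factors, feedback phosphatases of the Dusp family and inhibitors of NF-kB, switch on within minutes of receptor stimulation or stress and also respond to tissue dissociation. Of 27 measured members, 12 were higher past the rule (Nr4a1, Nr4a2, Jun, Junb, Atf3, Dusp1, Dusp2, Nfkbia, Nfkbiz, Tnfaip3, Ppp1r15a and Rgs1) and 0 were lower, against 5.86% and 0.613% of all genes. The median log2 ratio was 1.53; on the short-intron scale 8 of 21 were higher and the median was 1.25. The summed list took 0.110%, 0.518% and 1.57% of a cell's UMIs (lowest, median, highest) in Mg cells and 0.608%, 1.13% and 1.92% in Mg-TAGelMA cells. All 39 Mg-TAGelMA cells lay above the Mg median and 4 of 80 Mg cells above the Mg-TAGelMA median, with an overlap between 0.608% and 1.57%. Time from dissection to capture and the dissociation steps are not given in the sources used here, so handling and nail cannot be told apart.

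Nr4a2, an orphan nuclear receptor, was the member with the highest ratio of those past the rule. It had 12 UMIs in 6 of 80 Mg cells and 243 UMIs in 38 of 39 Mg-TAGelMA cells; per 10000 UMIs the lowest, median and highest were 0, 0 and 10.1 against 0, 6.95 and 27.3. The Mg cells with any Nr4a2 reached into the Mg-TAGelMA range, and the other 74 had none. The ratio was 24.8 (13.9 to 48.6). At 1000 UMIs it was found in 1 of 77 Mg cells and 20 of 39 Mg-TAGelMA cells, with B cells at 0.415% and 4.59%. Its relative Nr4a1 (Nur77), a reporter of antigen receptor signalling in T cells, had 7 UMIs in 5 cells and 62 UMIs in 28 cells, a ratio of 10.8 (4.96 to 28.1). At 1000 UMIs it was found in 1.30% of Mg and 17.9% (7.54 to 33.5) of Mg-TAGelMA NK cells, and in 1.30% and 11.4% of B cells. Its detection in NK cells is thus not set apart from that in B cells, whose own expression was not separated from free RNA.

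Junb, a subunit of the AP-1 transcription factor, was detected in 53 of 80 Mg cells and in every one of 39 Mg-TAGelMA cells. Per 10000 UMIs it ran from 0 over a median of 2.13 to 26.2 and from 2.40 over 10.7 to 34.6. The level was 293 and 1204 CPM, a ratio of 4.12 (3.38 to 5.04), or 5.26 on the short-intron scale. At 1000 UMIs it was found in 14 of 77 and 22 of 39 NK cells, while B cells, which express Junb themselves, showed it in 24.3% and 45%. Jun, another subunit, had a ratio of 5.86 (4.03 to 8.75), but 1 barcode, the deepest Mg-TAGelMA member, held 50.9% of its UMIs there; without the 9 cells named above the ratio of Jun was 3.75 (2.40 to 6.02), and it was not past the rule without barcodes with cycling genes (2.87, 1.89 to 4.48) or with cells of at least 1 UMI of the NK genes (2.29, 1.91 to 2.77). Tnfaip3, which ends NF-kB signalling by editing ubiquitin, had 25 UMIs in 15 cells and 172 UMIs in 36 cells, a ratio of 8.41 (5.51 to 13.4). The remaining members past the rule were Atf3 at 6.73, Rgs1 at 4.82, Dusp1 at 4.38, Ppp1r15a at 4.14, Nfkbiz at 3.20, Nfkbia at 3.01 and Dusp2 at 3.0. Rgs1, which dampens chemokine receptor signals, had 38.8% of its Mg-TAGelMA UMIs in 1 barcode, and without the barcodes with cycling genes its ratio was 2.77 (1.84 to 4.27) and not past the rule. With cells of at least 1 UMI of the NK genes, Dusp1 was at 2.16 and Ppp1r15a at 1.38, neither past the rule, and the call of Nfkbiz was lost in 6 alternatives. Members that did not pass included Fos at 2.48, Jund at 1.73, Btg2 at 1.52 and the chaperone Hspa8 at 0.910.

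**Figure D3:**
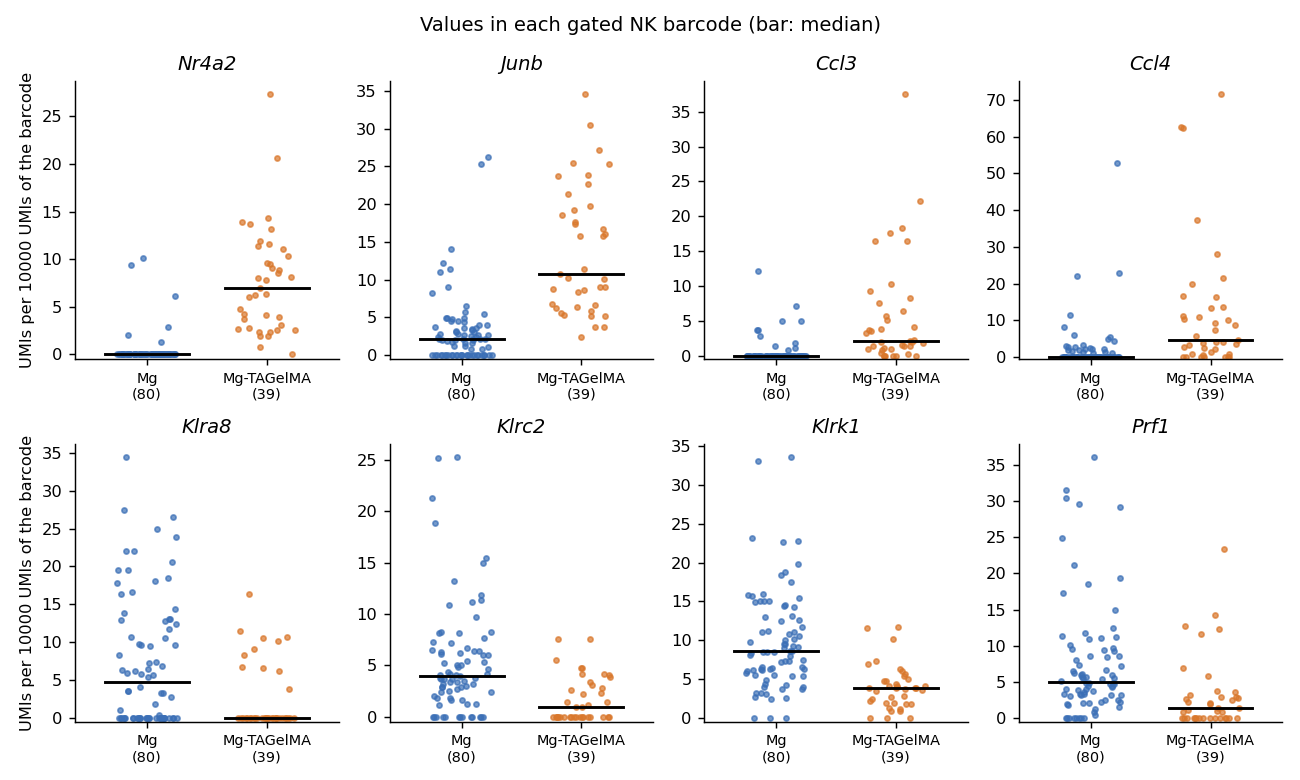
UMIs per 10000 UMIs of the barcode in each NK cell, for 80 Mg cells (blue) and 39 Mg-TAGelMA cells (orange); bars mark medians. Nr4a2, Junb, Ccl3 and Ccl4 have higher medians in the Mg-TAGelMA library, and Klra8, Klrc2, Klrk1 and Prf1 higher medians in the Mg library, with overlap in each panel.

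The immediate early genes differed among themselves in T cells. The T cell ratio was 0.857 for Junb, 1.18 for Jun, 1.13 for Dusp1, 0.942 for Ppp1r15a, 1.43 for Nfkbiz, 1.67 for Rgs1, 1.75 for Nr4a1, 1.78 for Nfkbia and 1.95 for Dusp2. It was 3.49 for Tnfaip3, 5.48 for Nr4a2 and 12.7 for Atf3, the last above its NK ratio. The ratio in NK cells divided by that in T cells was wholly beyond 2-fold in the higher direction for 20 of 3879 genes at 50 CPM or more in both cell types, 0.516%, and in the lower direction for 58, 1.5%. Of 25 immediate early members measured there, 6 were among the 20: Nr4a1 (6.17), Jun (4.98), Junb (4.80), Nr4a2 (4.52), Ppp1r15a (4.40) and Dusp1. This division by the T cell ratio was not run under the alternatives. With cells of at least 1 UMI of the NK genes, Jun, Ppp1r15a and Dusp1 had NK ratios of 2.29, 1.38 and 2.16, not past the rule. For Jun, 1 barcode held 50.9% of the Mg-TAGelMA NK UMIs. The 20 also held Ccl3 and Ccl4. The 58 included Id2 and Ccr2, cell cycle genes and myeloid genes such as Lyz2, whose NK UMIs lay to 84.9% in 2 Mg barcodes.

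**Figure D4:**
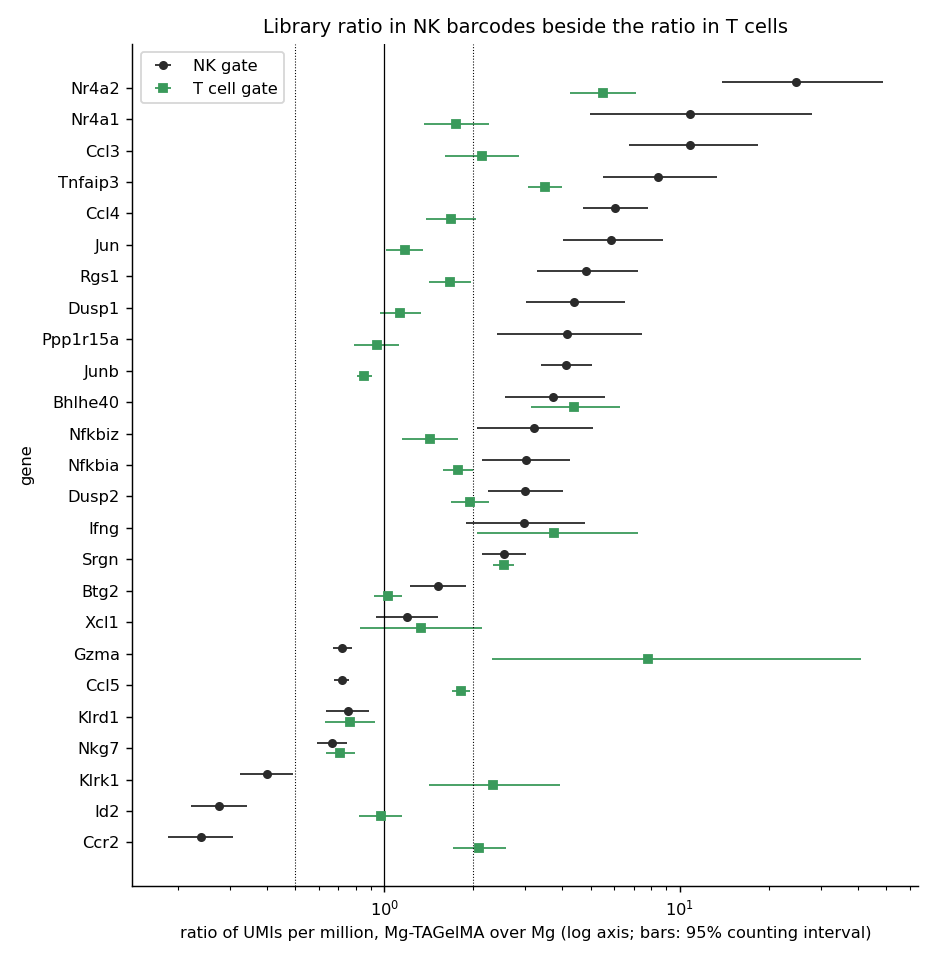
Ratio of CPM, Mg-TAGelMA over Mg, on a log axis, for 25 genes in NK cells (black circles) and T cells (green squares); bars are 95% counting intervals and dotted lines mark 2-fold in each direction. Junb, Jun, Dusp1 and Ppp1r15a lie near 1 in T cells and between 4.12 and 5.86 in NK cells, while Srgn, Nkg7 and Klrd1 have similar ratios in both.

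Promoters of 2 of these genes are shown because CRE and NF-kB letters are known elements of immediate early promoters. Capitals mark CRE-like matches in Nr4a1 (TGACGCA or its reverse complement TGCGTCA) and an NF-kB match in Tnfaip3 (GGG and then TTTCC with 2 free bases between, or the reverse complement), in the 250 bases before the RefSeq start (GRCm38.p6).
Nr4a1 (chr15:101266596-101266845, plus strand): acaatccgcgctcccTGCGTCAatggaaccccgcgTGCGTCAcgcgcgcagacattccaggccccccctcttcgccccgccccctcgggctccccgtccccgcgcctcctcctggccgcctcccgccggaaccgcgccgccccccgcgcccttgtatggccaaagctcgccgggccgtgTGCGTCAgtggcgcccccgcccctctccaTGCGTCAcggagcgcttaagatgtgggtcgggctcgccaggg
Tnfaip3 (chr10:19015411-19015660, minus strand): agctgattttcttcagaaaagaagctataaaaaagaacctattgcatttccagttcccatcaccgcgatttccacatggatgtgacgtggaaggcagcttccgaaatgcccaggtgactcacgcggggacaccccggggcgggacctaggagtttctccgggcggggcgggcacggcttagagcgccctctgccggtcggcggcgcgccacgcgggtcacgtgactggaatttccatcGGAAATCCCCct
Nr4a1 holds 4 CRE-like matches, and the match in Tnfaip3 lies 12 to 3 bases before the start. Of 30 list members, 22 had a window. The CRE-like letters were in 3 (Fosb, Btg1 and Nr4a1), against 2.0% of 27025 genes; the full CRE, TGACGTCA, was in 3 (Btg2, Dusp1 and Ppp1r15a), against 1.77%; and the NF-kB letters were in 2 (Nfkbia and Tnfaip3), against 1.65%. The RUNX core was in 0 of the 22, and that says only that these letters are not in those windows.

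Of the factors on which NK development rests, Eomes and Tbx21 had intervals that include 1, and Id2 was lower. Eomes was at 344 and 287 CPM (0.834, 0.644 to 1.08) and Tbx21, which encodes T-bet, had a ratio of 0.994. Id2, which blocks E-proteins and is needed for NK cells to mature, had 463 UMIs in 73 of 80 cells and 105 UMIs in 30 of 39 cells. Per 10000 UMIs it ran from 0 over a median of 9.66 to 29.0 in Mg cells and from 0 over 1.92 to 10.7 in Mg-TAGelMA cells, so that the highest Mg-TAGelMA cell was near the middle of the Mg range. The ratio was 0.277 (0.222 to 0.343), 0.354 on the short-intron scale and 0.973 in T cells. With cells of at least 1 UMI of the NK genes it was 0.501 (0.421 to 0.594) and not past the rule. At 1000 UMIs Id2 was found in 48 of 77 and 11 of 39 cells, with B cells at 2.35% and 4.11%. Of 22 measured factors, 7 were higher past the rule, beside 5.86% of all genes: Zbtb16, Rora, Bach2, Ikzf2, Tox, Foxo1 and Bhlhe40, with ratios of 33.0, 22.5, 13.9, 6.48, 5.85, 5.54 and 3.73. Bhlhe40 is the only one of them measured on the short-intron scale, at 4.77, and its T cell ratio was 4.39. For the other 6 the T cell ratios lay between 2.01 and 8.38. Without the 9 cells named above Ikzf2 was at 3.50 (1.92 to 6.70) and not past the rule.

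Cytokine receptors carry the signals of interleukins 2, 12, 15 and 18 that sustain and arm NK cells. Il2rb, the shared receptor chain for interleukins 2 and 15, was at 1230 and 844 CPM in 76 and 37 cells (0.686, 0.595 to 0.790), and Il18rap was at 368 and 371 CPM (1.01, 0.797 to 1.27). Il12rb2, the signalling chain of the interleukin 12 receptor, differed most: 21 UMIs in 18 of 80 cells against 277 in 37 of 39 cells, with per-cell medians of 0 and 6.91 and highest values of 5.0 and 53.8. Its ratio was 16.1 (10.3 to 26.5). The gene has 81.1 kb of intron, and in T cells it went from 0 to 93.1 CPM. B cells at 1000 UMIs showed it in 0% and 0.489% of barcodes, NK cells in 1 of 77 and 18 of 39. Of 23 measured receptors and their kinases and STATs, 4 were higher (Il12rb2, Il21r at 7.58, Stat5b at 4.11 and Tgfbr2 at 3.48) and 0 lower, around a median log2 ratio of 0.01. Among all genes 5.86% were higher and 0.613% lower. Il21r, Stat5b and Tgfbr2 have no value on the short-intron scale. Their calls were lost in 4, 2 and 3 alternatives, with ratios down to 2.28, 2.48 and 2.27.

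Among homing genes Ccr2 was lower. This receptor for the chemokine Ccl2 draws cells out of marrow and into inflamed tissue. It had 397 UMIs in 57 of 80 cells and 78 in 24 of 39 cells, per-cell values of 0, 6.40 and 46.1 (lowest, median, highest) against 0, 1.32 and 7.62, and a ratio of 0.240 (0.186 to 0.307), 0.307 on the short-intron scale. In T cells the ratio was 2.1, in the other direction. At 1000 UMIs Ccr2 was found in 35 of 77 and 7 of 39 NK cells, with B cells at 1.91% and 2.83%. With cells of at least 1 UMI of the NK genes the ratio was 0.588 (0.507 to 0.679) and not past the rule. Monocytes express Ccr2 too, and the 8 monocyte markers summed to 2689 and 1114 CPM in NK cells; without the 9 cells named above, which include the Lyz2-rich ones, the ratio was 0.209 (0.152 to 0.281). S1pr5, an exit receptor of mature NK cells, had 21 UMIs in 16 cells and 1 UMI in 1 cell. The list's summed level took a median of 0.539% of an Mg cell's UMIs and 0.322% of an Mg-TAGelMA cell's, and 75 of 80 Mg cells lay above the latter. Of 20 measured homing and adhesion genes, 0 were higher and 1 lower, beside 5.86% and 0.613% of all genes. Their median log2 ratio was -0.62.

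Stage markers were too sparse to sort the cells at this depth. Without thinning, Cd27 alone, both Cd27 and Itgam (CD11b), Itgam alone and neither were detected in 15, 23, 16 and 26 of 80 Mg cells and in 14, 10, 7 and 8 of 39 Mg-TAGelMA cells. At 1000 UMIs per barcode, 58 of 77 and 30 of 39 cells had neither, so that the stages could not be assigned. Of 14 measured early CD27-stage genes, 0 were past the rule in either direction, beside 5.86% higher and 0.613% lower among all genes. Their median log2 ratio was -0.59.

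NK barcodes with cycling genes were few in both libraries. Mki67 and Top2a, genes of dividing cells, together reached 10 or more UMIs in 4 of 80 Mg barcodes (5.0%, exact interval 1.38 to 12.3) and 1 of 39 Mg-TAGelMA barcodes (2.56%, 0.0649 to 13.5). The 4 Mg cells held 12 to 50 UMIs of the 3 NK genes and 21 to 168 of Gzma, with 11801 to 25637 UMIs in all, and they carried 81.1% of the library's NK Mki67 UMIs. The Mg-TAGelMA barcode met the NK limit and the limit of 10 exactly, so it is not a clear cycling NK cell. It was the deepest, with 37472 UMIs, 4 of Mki67, 6 of Top2a, 2 of the NK genes and 1 of Gzma. Mki67 therefore differed as 164 against 13 UMIs (0.0969, 0.0505 to 0.170); without these 5 barcodes its ratio was 0.334 (0.140 to 0.718) and that of Top2a went from 0.144 to 1.06 (0.443 to 2.52). The proliferation list had 3 of 25 lower (Mki67, Top2a and Cenpf) and 0 higher, beside 0.613% and 5.86% of all genes. Its median log2 ratio went from -1.21 to -0.39 without these 5 barcodes.

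Genes of magnesium transport were examined because the nails contain magnesium. Of 11 measured members, Slc41a2 and Cnnm2 were past the rule in the higher direction, beside 5.86% of all genes. They had 2 and 48 UMIs (29.3, 7.69 to 249) and 4 and 76 UMIs (23.2, 8.71 to 87.5). Both have long introns, and their T cell ratios were 8.58 and 6.36. Magt1, a magnesium transporter whose loss in people lowers NKG2D, was at 60.3 and 68.3 CPM (1.13, 0.630 to 2.03), Trpm7 at 112 and 87.4 CPM (0.783, 0.486 to 1.24) and Nipa2 at 67.0 and 79.2 CPM (1.18, 0.685 to 2.04). The median log2 ratio of the list was -0.35, and at 25 to 50 UMIs per gene a difference below about the width of these intervals was not detectable.

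MHC class I genes, whose products license NK cells and mark self, had 0 of 14 past the rule. The shares of all genes to set beside this list and the next ones were 5.86% higher and 0.613% lower. H2-K1 was at 2617 and 1677 CPM (0.641, 0.580 to 0.707) and B2m at 1885 and 1046 CPM (0.555, 0.491 to 0.627), with T cell ratios of 0.609 and 0.563, so the reading was alike in both cell types. Among 14 survival genes, Bcl2l11, which encodes the death inducer Bim, was past the rule at 5.01 (3.56 to 7.2), with a T cell ratio of 6.0; Bcl2 was at 1.41 and Mcl1 at 0.984. Interferon-response genes had 1 of 18 higher and 1 lower: Gbp7, a guanylate-binding protein, at 0.256 (0.133 to 0.459), and Ifitm1, with 0 UMIs in the Mg library and 31 UMIs in 8 Mg-TAGelMA cells, a ratio of at least 12.6 against a floor of 3 UMIs. That call was lost in 4 alternatives: without the 9 cells named above the ratio was at least 2.8 and without the 5 barcodes with cycling genes at least 2.68, against the same floor. Actin and its regulators, on which the killing synapse rests, had 1 of 17 past the rule: the guanine exchange factor Dock2, higher at 3.62 (3.11 to 4.21), with a T cell ratio of 4.48. Actb itself was at 0.676 (0.640 to 0.713).

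**Figure D5:**
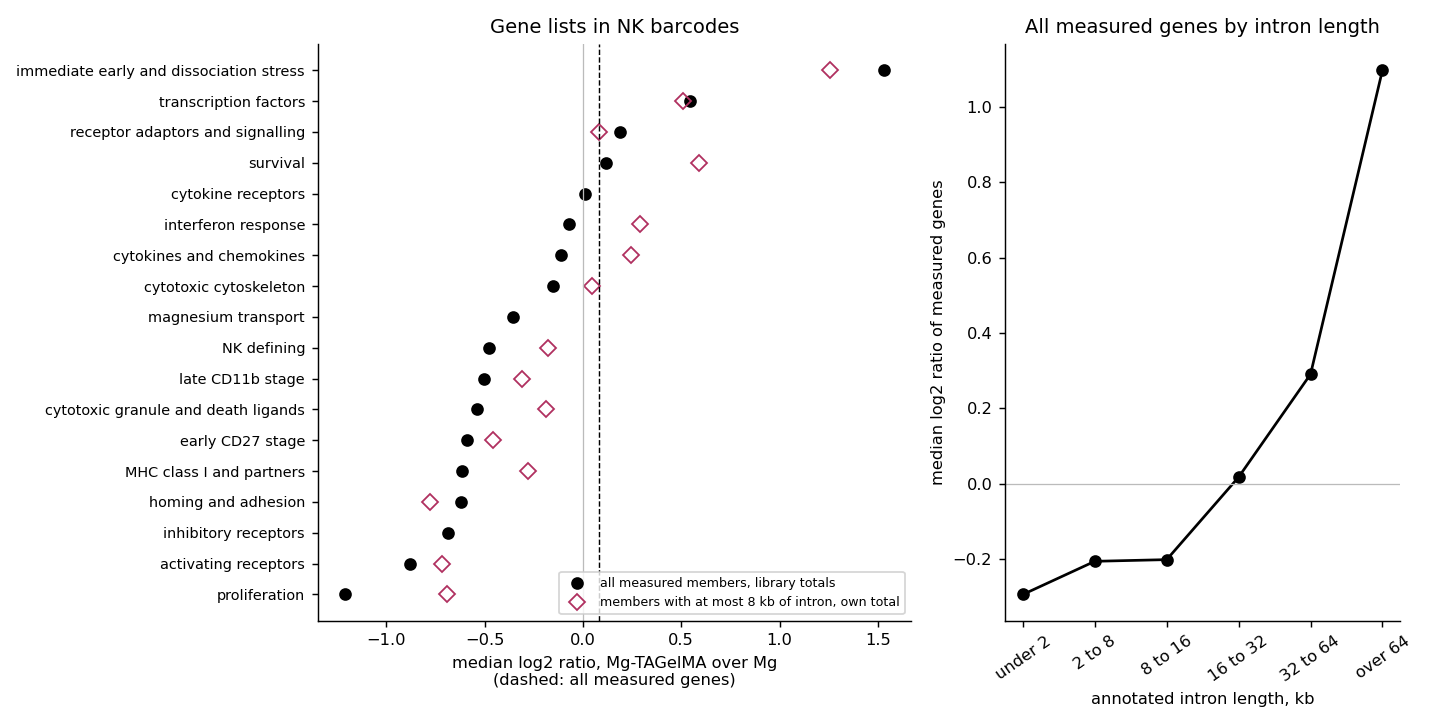
Left: median log2 ratio (Mg-TAGelMA over Mg) of 18 gene lists in NK cells, over all measured members (black circles) and over members with at most 8 kb of intron on their own total (open diamonds, where 3 or more were measured); the dashed line is the median of all measured genes, 0.08. Right: median log2 ratio of all measured genes by annotated intron length. The immediate early list lies highest on both scales, at 1.53 and 1.25, and genes with over 64 kb of intron have a median of 1.10.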

How the data were processed

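Counts were deposited by the authors as 2 sparse matrices of UMI counts per gene and barcode, with gene and barcode lists beside them; their totals were 58261391 UMIs (Mg) and 79890998 UMIs (Mg-TAGelMA). Cell Ranger versions 5.0.0 (Mg) and 7.0.1 (Mg-TAGelMA) are named per the file headers, and Cell Ranger, STAR and mm10 per the submitters' processing notes. Whether intronic reads were counted is not given in the sources used here. The per-gene deposited counts were not corrected for free RNA.

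From these counts the NK, T (at least 2 Cd3 UMIs) and B (at least 4 Cd79 UMIs) barcodes were gated, their UMIs summed per library and expressed per 1000000 UMIs (CPM). CPM from 3′ ends is not per length, so an order of levels between genes served only to pick names and is not read as a result. Ratios carry exact conditional binomial 95% intervals, shares exact Clopper-Pearson 95% intervals; both cover counting error only. A count of 0 was set to 3 UMIs in ratios. Genes were named as members of 18 lists past the size rule or with the 6 highest levels of a list, the 10 highest and lowest ratios overall and at most 8 kb of intron, and the 15 genes highest in NK cells over other barcodes; other members of a list that are named were chosen after their values were seen. Genes of the lists, the gate and the lists themselves were chosen with earlier results of these data known. The ratio rule was run on simulated sums drawn with counting error alone. Those sums hold no variation between cells, so they cannot test the rule where 1 barcode carries much of a gene's UMIs. Doublets found by scrublet were removed only as an alternative. Alternatives that drop barcodes with another type's genes or with cycling genes, and a mean over cells, were chosen after seeing the data, as was the description of barcodes with both NK and Cd3 genes. Positions and intron lengths were read from the GENCODE vM21 annotation, promoters from RefSeq (GRCm38.p6). Items withheld for evaluation are not reported here. Software: Python 3.11.15, numpy 2.4.6, scipy 1.17.1, pandas 2.3.3, scanpy 1.11.5, matplotlib 3.10.9, and R 4.3.3 with edgeR 4.0.16 and DESeq2 1.42.0 for scaling factors only.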

Additional observations from a re-analysis of the deposited data

How the results depend on the processing

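The lower NK share kept its direction in every alternative, with a ratio from 0.505 to 0.579 under other cell filters and gates and 0.273 (69 and 18 cells) when barcodes were thinned to 1000 UMIs before gating; its interval reached 1 outside the neutrophil and erythroid gates (0.774) and among NK and T cells (0.937). The gate genes Ncr1, Klrb1c and Klre1 were themselves lower in Mg-TAGelMA NK cells, with ratios of 0.476, 0.515 and 0.537. A gate on their UMIs, above all after thinning, can thus leave out more cells of that library. The value of 0.273 is therefore no support for fewer NK cells. Gene counts changed most with the gate and the rule. With at least 1 UMI of the NK genes, 658 genes were higher and 204 lower; on the short-intron scale 52 were higher and 18 lower, among fewer genes; at 1.5-fold 762 were higher and 185 lower; at 3-fold 314 were higher and 25 lower. Under the remaining alternatives 419 to 585 genes were higher and 43 to 77 lower. Median log2 ratios crossed 0 at the 1-UMI gate for the cytotoxic list (0.068) and the late CD11b list (0.45), and in at least 1 alternative for 6 lists that lay nearer to 0: cytokines (up to 1.11), magnesium transport (up to 0.24), cytoskeleton (up to 0.41), interferon response (up to 0.34), cytokine receptors (down to -0.20) and survival (down to -0.02). The cause was not tested, and no direction is read from these lists. Top2a went to 1.06 without cycling barcodes, which held most of its UMIs. Of 52 named genes higher past the rule, 28 were past it in every alternative that could be run on them. Among these were Nr4a1, Nr4a2, Junb, Tnfaip3, Ccl3, Ccl4 and Il12rb2. Of 25 lower, 2 were (Hist1h2ap and Lars2). Lars2 had a ratio of 0.0362 in NK cells and 0.0367 in T cells, so its difference was not particular to NK cells. For Hist1h2ap these ratios were 0.0810 and 0.718. The short-intron scale could not be applied to genes with longer introns, among them Nr4a1, Nr4a2, Il12rb2 and Lars2. Whether their calls depend on the shift of ratios with gene structure was thus not tested. Junb, Tnfaip3, Ccl3, Ccl4 and Hist1h2ap were past the rule on that scale too. The calls of Klrc2, Prf1 and Klrk1 were each lost in 6 or 7 alternatives. The number of cells limits shares: with a UMI in 0 of 39 cells, the exact interval for the share of cells with a UMI reaches 9.03%. No paired analysis was possible because each nail has 1 library.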

Other observations

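Barcodes that held both 2 or more UMIs of Ncr1, Klrb1c and Klre1 and 2 or more of Cd3 were left out of the NK cells; the Mg library had 76 of them and the Mg-TAGelMA library 60. Whether they are single cells was not tested. Gzma, present in most NK cells, was detected in 8 of 76 and 8 of 60 of them, Cd8a in 17 and 12, and Trdc, a constant part of the gamma-delta receptor, in 16 and 16. Ccl5 was at 5672 and 6491 CPM, near its level in NK cells. In these barcodes Nr4a2 went from 8 UMIs in 6 barcodes to 355 UMIs in 57 barcodes (ratio 45, 22.6 to 105), and Junb from 206 to 848 UMIs (4.17, 3.58 to 4.88), beside Junb ratios of 4.12 in NK cells and 0.857 in T cells. Klrk1 was at 504 and 296 CPM (0.587, 0.486 to 0.707), Klrc2 at 314 and 130 CPM (0.413, 0.314 to 0.539), and Prf1 at 69.7 and 32.8 CPM. Ccl3 had 3 and 31 UMIs (10.5, 3.27 to 53.5). Id2 differed less than in NK cells, at 358 and 204 CPM (0.569, 0.453 to 0.712). These barcodes come from the same 2 libraries and are no replicate of the NK comparison.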
